A study of Mus musculus with 8 samples.

Results

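The 29 genes described here, Snap25, Syt1, Rbfox3, Tubb3, Map2, Nefl, Nefm, Nefh, Slc17a6, Slc17a7, Gad1, Gad2, Syn1, Stmn2, Camk2a, Thy1, Gria1, Gria2, Grin1, Dlg4, Eno2, Syp, Vamp2, Meg3, Sncb, Cplx1, Bsn, Pclo and Nrgn, are neuronal and synaptic markers, and their RNA was followed in microglia preparations. They were chosen by name, as the rows of the count table whose Ensembl identifier carries 1 of these symbols. A row was found for 27 of the 29, among 26062 gene identifiers in all. Slc17a6 and Sncb matched no row and were not analysed here.

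The preparations came from the LGN, or lateral geniculate nucleus, the part of the thalamus that retinal axons reach, of wild-type male C57BL/6J mice aged 2 to 3 months. Cells were bound to magnetic beads against CD11b, a surface integrin of microglia and other myeloid cells, and their RNA was linearly amplified before sequencing. There were 2 libraries from uninjured mice, 3 from mice taken 1 day after both optic nerves had been crushed, and 3 from mice taken 3 days after that crush. Crush severs retinal ganglion cell axons, which end in LGN synapses. The labels do not say which libraries came from separate animals or pools, so p-values measure the spread between libraries, which may be partly technical.

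A neuron releases transmitter when calcium, sensed by synaptotagmin, drives SNARE proteins of the vesicle and the plasma membrane to fuse both at an active zone. Receptors held by scaffolds across the cleft then respond, while neurofilaments and microtubules support the axon. Microglia survey synapses and engulf synaptic material during development and after injury.

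The libraries held 12700098 to 17994861 counts. Levels are given as CPM, counts scaled to a common library total, with TMM factors that correct for differences in RNA composition. All 12 listed microglial markers were measured, and together they stood at 8753 to 15450 CPM in each library. Single markers moved within this sum, as given further below. Choroid plexus and ependymal markers, with 9 of 10 listed genes measured, differed most between libraries of the marker lists. Their sum was 5545 and 527 CPM in the uninjured libraries, 1.09, 56.7 and 1.23 CPM at 1 day, and 3590, 624.3 and 1978 CPM at 3 days. Folr1 and Otx2 of that list had no count at 1 day. Endothelial markers summed to 1724 to 1876 CPM in the uninjured libraries, 818.4 to 959.6 CPM at 1 day and 1521 to 1577 CPM at 3 days. Mitochondrially encoded RNA took 13.6% to 30.3% of the counts.

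RNA of the 27 measured genes made up a small share of every library, and most of it came from a few of them. Their sum is not a measure of all neuronal RNA. In bulk RNA, fewer cells of a type and less RNA per cell cannot be told apart. The 27 genes took 0.0134% to 0.0203% of the counts of a library. Their summed level was 150.8 and 147.3 CPM in the uninjured libraries, 200.3, 198.7 and 185.9 CPM at 1 day, and 187.3, 137.4 and 173.6 CPM at 3 days. Vamp2 alone gave 35.9% to 56.1% of that sum in each library. Vamp2, Eno2, Camk2a, Bsn and Dlg4 together held 16313 of the 20610 counts that the 27 genes gathered over all 8 libraries, or 79.15%.

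The group means of the sum were 195 ± 7.89 CPM at 1 day and 166.1 ± 25.8 CPM at 3 days (SD, n = 3 each), against 149 ± 2.48 CPM in uninjured mice (SD, n = 2). All 3 libraries of 1 day lay above both uninjured libraries, and those of 3 days reached below and above them. Without Vamp2 the means were 98.9 ± 10.4 CPM at 1 day, 77.8 ± 8.68 CPM at 3 days and 89.96 ± 9.51 CPM in uninjured mice. The libraries of 1 day and of uninjured mice then overlapped, at 88.1 to 108.9 CPM and 83.2 to 96.7 CPM. No test was run on these sums.

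The genes differed widely in whether they had enough counts to be followed. A count was seen in every library for 12 of the 27, and at least 10 counts in every library for 8, namely Vamp2, Eno2, Camk2a, Bsn, Dlg4, Stmn2, Map2 and Meg3. The filter of edgeR on low counts, set on the 3 groups, kept 20 genes for testing. It left out Slc17a7, Gad2, Gria2, Grin1, Tubb3, Nefl and Thy1. The filter asks for counts in several libraries, and Gria2, with 95 counts in all, had 59 in 1 library and at most 10 in any other. In all 8 libraries together, Slc17a7 gathered 2 counts, Grin1 3, Tubb3 5, Nefl 14 and Gad2 17. A gene with no count in a library could have stood at up to 0.1545 to 0.242 CPM there, the level of 3 counts, which covers counting error alone.

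Per kilobase of all annotated exons of a gene, merged, 23 of the 27 genes lay below the median gene of the table. This length can exceed that of any 1 transcript, which lowers the value. Vamp2 stood at 22.0 CPM per kilobase, at the 94.1th percentile of all genes, Eno2 at 3.74 (72.0th percentile), Camk2a at 2.18 (62.8th) and Stmn2 at 1.32 (54.4th). The next were Bsn at 0.705 and Dlg4 at 0.658 CPM per kilobase, at the 44.7th and 43.6th percentiles. The pattern across all 27 genes is shown in the map of levels.

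**Figure D1:**
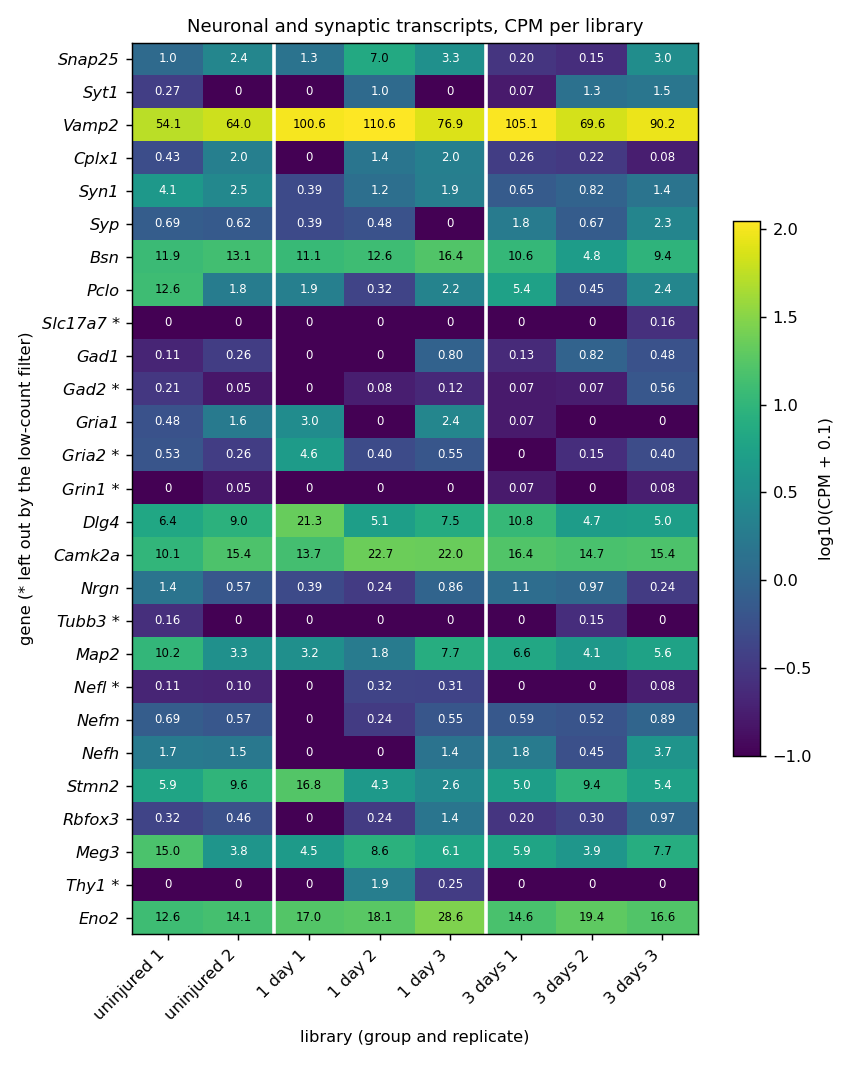
Level of the 27 measured neuronal and synaptic genes (rows, ordered by role) in each of the 8 libraries (columns, uninjured, 1 day and 3 days after crush), as CPM printed in each cell and coloured by log10(CPM + 0.1). Vamp2 is the brightest row at 54.1 to 110.6 CPM, and asterisks mark the 7 genes that the filter on low counts left out of the test.

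RNA levels of a neuronal gene outside neurons are set in part by its promoter, where the repressor REST binds a long element with a left and a right part and silences neuronal genes in other cells. The promoter windows of RefSeq (GRCm38.p6), short stretches around each start site, were searched on both strands for the left part, TTCAGCACC, and the right part, GGACAGNGC, which do not overlap. A window was at hand for 20 of the 29 genes, and Snap25, Nefl, Nefm, Nefh, Stmn2, Camk2a, Thy1, Gria1 and Vamp2 had none. The left part stood in 1 of the 20 windows (5%), against 117 of 27025 genes (0.433%). The right part stood in 2 of the 20 (10%), against 589 of 27025 genes (2.18%). All 3 matching stretches are shown, those of Syn1, which tethers vesicles, Gad2, which makes GABA, and Gria2, a glutamate receptor subunit. The other genes with a window held no match, scarce ones such as Slc17a7, Grin1 and Tubb3 and abundant ones such as Eno2, Bsn and Dlg4 alike. Only exact matches in these windows were sought, and their relation to the counts was not tested. Capitals mark the match, and each line runs 5′ to 3′ on the strand of its gene.
Syn1, chrX:20921109-20921168, minus strand: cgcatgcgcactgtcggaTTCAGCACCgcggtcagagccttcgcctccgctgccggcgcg
Gad2, chr2:22622147-22622206, plus strand: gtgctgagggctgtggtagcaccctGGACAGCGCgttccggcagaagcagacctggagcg
Gria2, chr3:80802974-80803033, minus strand: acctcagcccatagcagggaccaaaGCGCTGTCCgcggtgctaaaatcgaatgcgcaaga
The first base of the match lay 232 bases before the start in Syn1, 155 in Gad2 and 173 in Gria2, where the match was on the opposite strand. A match describes the letters alone, and REST binding was not measured.

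In none of the 3 comparisons did a neuronal or synaptic gene pass the test. With edgeR and an adjusted p under 0.05 over all 17390 genes tested, 0 of 20 genes were called at 1 day against uninjured, where 1.77% of all genes were called. For 3 days against uninjured 0 of 20 were called, beside 3.47% of all genes, and for 3 days against 1 day 0 of 20, beside 11.0%. At an unadjusted p under 0.05 there were 2 genes at 1 day (Vamp2 and Pclo), 2 at 3 days (Vamp2 and Gria1) and 1 between the times (Gria1). Of all 17390 genes tested, 2569, 2749 and 4549 passed at that p, no smaller a share than among the 20. Many of the 20 were scarce and had wide intervals, so the difference is not read as a property of these genes. DESeq2 called 0 in both comparisons with uninjured and 1 (Gria1) between the times, and limma-voom called 0 in each. For Gria1 at 3 days against uninjured DESeq2 gave no adjusted p.

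The 3 comparisons share libraries, so their values are given side by side and not as independent evidence. The median log2 fold change of the 20 genes was 0.06 at 1 day against uninjured, beside 0.06 for all genes tested, and its sign was not stable. It ran from -0.90 to 0.59 over the other settings (-0.90 with the replicate number as a block, -0.53 with limma-voom, -0.30 without replicate 3 of 1 day, and 0.59 without uninjured replicate 2). It was -0.20 at 3 days against uninjured, beside -0.00 for all genes, but 0.14 without uninjured replicate 1, 0.05 without uninjured replicate 2 and -0.42 with the block. Between the times, 3 days against 1 day, it was -0.17, beside 0.02 for all genes, and 0.04 with limma-voom. The 95% intervals were narrowest for Vamp2 and spanned several log2 units for scarce genes, as the plot of fold changes shows.

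**Figure D2:**
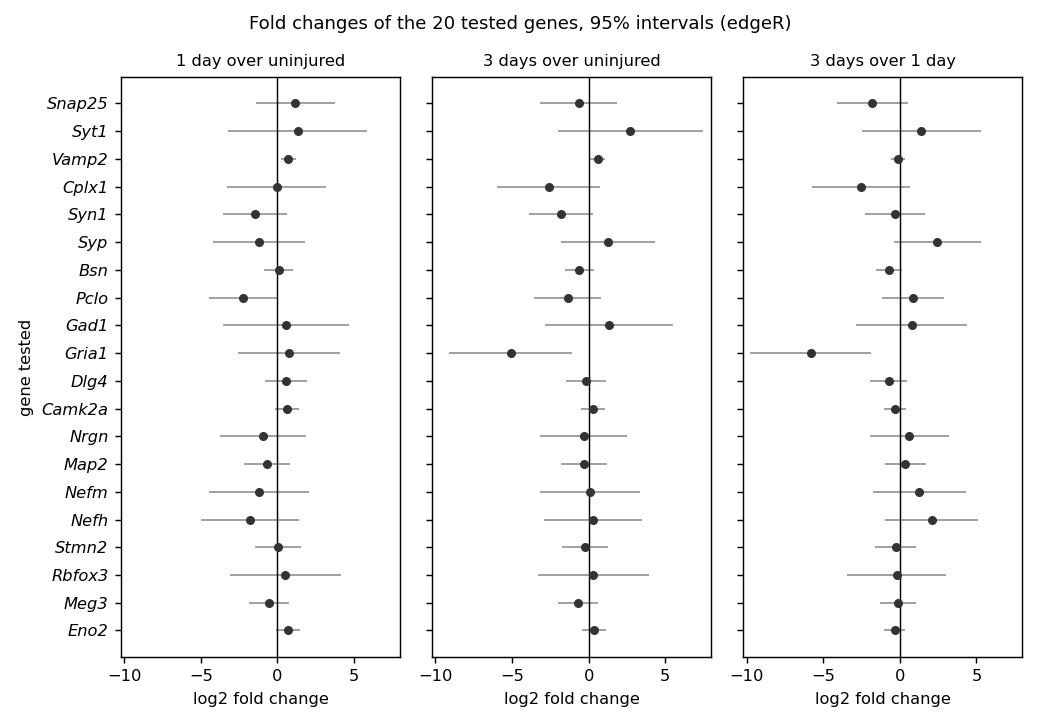
Log2 fold change (x axis, points) with its 95% interval (lines) from edgeR for each of the 20 tested genes (y axis), at 1 day over uninjured, 3 days over uninjured and 3 days over 1 day. Intervals that exclude 0 are those of Vamp2 and Pclo at 1 day, Vamp2 and Gria1 at 3 days, and Gria1 between the times, and no adjusted p was under 0.05.

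Among proteins of the vesicle and its fusion machinery, Vamp2 encodes synaptobrevin 2, the SNARE of the vesicle membrane. Vamp2 stood at 54.1 and 64.0 CPM in the uninjured libraries, 100.6, 110.6 and 76.9 CPM at 1 day, and 105.1, 69.6 and 90.2 CPM at 3 days. Every library after crush lay above both uninjured ones. Here and below, how often genes in general separate in this way was not counted. Vamp2 averaged 96.1 ± 17.3 CPM at 1 day (SD, n = 3) and 59.1 ± 7.05 CPM in uninjured mice (SD, n = 2). Its log2 fold change at 1 day against uninjured was 0.70 (SE 0.23, 95% interval 0.21 to 1.20), with an edgeR adjusted p of 0.15. At 3 days it averaged 88.3 ± 17.8 CPM (SD, n = 3), and the log2 fold change against uninjured was 0.58 (SE 0.23, interval 0.09 to 1.07), with an edgeR adjusted p of 0.216. Between the times it was -0.12 (interval -0.55 to 0.31, edgeR adjusted p 0.764). Over the 17 other settings tried, the adjusted p of Vamp2 ran from 0.0881 to 0.817 at 1 day and from 0.118 to 0.781 at 3 days.

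The other genes of this machinery were scarce. Snap25, the plasma membrane SNARE that pairs with synaptobrevin, ranged from 0.149 to 6.98 CPM, with its highest library at 1 day and its lowest at 3 days. Syt1, the calcium sensor, had a count in 5 of 8 libraries and at most 1.45 CPM. Cplx1, a complexin that clamps the SNARE complex, stood at 0.0807 to 0.262 CPM in the 3 libraries of 3 days, all below the uninjured 0.427 and 1.96 CPM. Its log2 fold change there was -2.60 (SE 1.57, edgeR adjusted p 0.476).

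Syn1, the synapsin that tethers vesicles to actin, was lower in every library after crush than in both uninjured ones, without passing the test. It stood at 4.06 and 2.52 CPM in the uninjured libraries, 0.389, 1.20 and 1.91 CPM at 1 day, and 0.654, 0.819 and 1.37 CPM at 3 days. Its log2 fold change was -1.48 at 1 day (SE 0.98, edgeR adjusted p 0.547) and -1.79 at 3 days (SE 0.99, edgeR adjusted p 0.419). Syp, synaptophysin, a membrane protein of synaptic vesicles, ranged from 0 to 2.34 CPM, and its exons share 875 bases with Gm14703 on the opposite strand. The strand setting of the counting is not given in the sources used here, so reads of such pairs cannot be told apart.

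Bsn and Pclo encode bassoon and piccolo, the giant scaffolds of the active zone. Bsn stood at 11.9 and 13.1 CPM in the uninjured libraries, 11.1, 12.6 and 16.4 CPM at 1 day, and 10.6, 4.77 and 9.36 CPM at 3 days. All 3 libraries of 3 days lay below all others, with a log2 fold change of -0.60 against uninjured (SE 0.44, edgeR adjusted p 0.584) and -0.70 against 1 day (SE 0.40, edgeR adjusted p 0.292). Pclo stood at 12.6 and 1.80 CPM in the uninjured libraries, 1.95, 0.321 and 2.22 CPM at 1 day, and 5.43, 0.447 and 2.42 CPM at 3 days.

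The high Pclo level of uninjured mice was that of 1 library, replicate 1, and the groups overlapped. At 1 day against uninjured its log2 fold change was -2.26 (SE 1.04, 95% interval -4.47 to -0.04), with an edgeR adjusted p of 0.328. Without uninjured replicate 1 it was -0.27 (adjusted p 1), and without uninjured replicate 2 it was -3.06 (adjusted p 0.265). At 3 days it was -1.38 (SE 1.02, edgeR adjusted p 0.593), and 0.61 without uninjured replicate 1. That library also held the highest sum of choroid plexus markers, 5545 CPM, and the part of such cells in its Pclo level was not tested. Exons of Pclo share 925 bases with 2 genes on the opposite strand.

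Genes that make or load transmitter were almost without counts. Slc17a7, which loads glutamate into vesicles, was counted in 1 library only, at 0.161 CPM at 3 days. Gad1 and Gad2, which make GABA, reached at most 0.819 CPM and 0.565 CPM. Gad1 averaged 0.267 ± 0.462 CPM at 1 day and 0.478 ± 0.344 CPM at 3 days (SD, n = 3 each), against 0.182 ± 0.107 CPM in uninjured mice (SD, n = 2). At these counts neither a rise nor a fall was detectable.

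On the postsynaptic side, Camk2a and Dlg4 were the abundant genes. Camk2a, the alpha subunit of a calcium-dependent kinase of excitatory synapses, stood at 10.1 and 15.4 CPM in the uninjured libraries, 13.7, 22.7 and 22.0 CPM at 1 day, and 16.4, 14.7 and 15.4 CPM at 3 days. Its log2 fold change at 1 day was 0.61 (SE 0.37, edgeR adjusted p 0.511), and the groups overlapped. Dlg4, the scaffold PSD-95, stood at 6.36 and 9.01 CPM in the uninjured libraries, 21.3, 5.06 and 7.45 CPM at 1 day, and 10.8, 4.69 and 5.0 CPM at 3 days. Its highest level was that of 1 library, replicate 1 of 1 day, and without it the log2 fold change of 3 days against 1 day was 0.12 in place of -0.72. Nrgn, neurogranin, a calmodulin-binding protein of spines, ranged from 0.241 to 1.39 CPM.

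The receptor subunit Gria1 was counted in uninjured mice and at 1 day but hardly at 3 days. It stood at 0.481 and 1.65 CPM in the uninjured libraries, 2.96, 0 and 2.40 CPM at 1 day, and 0.0654, 0 and 0 CPM at 3 days. The 3 libraries of 3 days held 1 count in all, against 77 counts at 1 day, which scaled to library size was 76.2 times more at 1 day (exact binomial 95% interval 13.3 to 3050, counting error alone). Uninjured mice held 41 counts, 44.2 times more than 3 days after scaling (interval 7.5 to 1788). The edgeR adjusted p was 0.057 at 3 days against 1 day and 0.182 at 3 days against uninjured.

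The library without a Gria1 count at 1 day was replicate 2. Without it the edgeR adjusted p at 3 days against 1 day was 0.0117. DESeq2 gave 0.0134 there, and edgeR with no filter on low counts gave 0.0332. In the other 12 of 15 alternatives that tested Gria1 the adjusted p ran from 0.0542 to 0.27 (0.27 with limma-voom and 0.186 without replicate 3 of 3 days). Gria2, another subunit of the same receptor class, held 59 of its 95 counts in replicate 1 of 1 day, and was not tested. Grin1, the obligatory subunit of NMDA receptors, had 3 counts in all, and its exons share 1307 bases with Grin1os on the opposite strand.

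Among cytoskeletal genes, Stmn2 and Map2 could be followed in every library. Stmn2, a stathmin that regulates microtubules in growing axons, stood at 5.93 and 9.63 CPM in the uninjured libraries, 16.8, 4.33 and 2.65 CPM at 1 day, and 5.03, 9.38 and 5.41 CPM at 3 days. Libraries of 1 day were both the highest and the lowest, and the log2 fold change at 1 day was 0.02 (SE 0.69, edgeR adjusted p 0.994). Map2, a microtubule protein of dendrites, stood at 10.2 and 3.30 CPM in the uninjured libraries, 3.19, 1.77 and 7.70 CPM at 1 day, and 6.6, 4.10 and 5.65 CPM at 3 days. The 3 groups overlapped.

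The neurofilament genes and the neuronal tubulin were scarce. Nefh, the heavy neurofilament chain, stood at 1.66 and 1.55 CPM in the uninjured libraries, 0, 0 and 1.36 CPM at 1 day, and 1.76, 0.447 and 3.71 CPM at 3 days. All libraries of 1 day lay below both uninjured ones, with a log2 fold change of -1.77 (SE 1.5, edgeR adjusted p 0.671). Between the times it was 2.07 (SE 1.41, edgeR adjusted p 0.388), and the edgeR adjusted p was 0.0331 without replicate 3 of 1 day, which held all counts of that group. Nefm and Nefl, the medium and light chains, stayed at or below 0.887 and 0.321 CPM, and share 1108 exon bases on opposite strands. Tubb3, the neuronal beta tubulin, had counts in 2 libraries, 2 counts in one of 3 days and 3 in an uninjured one.

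Of the remaining markers, Eno2, the neuron-specific enolase of glycolysis, stood at 12.6 and 14.1 CPM in the uninjured libraries, 17.0, 18.1 and 28.7 CPM at 1 day, and 14.6, 19.4 and 16.6 CPM at 3 days. As with Vamp2, every library after crush lay above both uninjured ones. Other genes separated the other way. All libraries of 1 day lay below both uninjured ones for Syn1, Syp, Nefm and Nefh. All those of 3 days did so for Cplx1, Syn1, Bsn and Gria1. The gap could be small, as for Nefm, at 0.554 CPM in replicate 3 of 1 day and 0.567 CPM in uninjured replicate 2. How often genes in general separate with so few libraries was not counted. These separations are therefore not read as a result about these genes. The log2 fold change of Eno2 was 0.68 at 1 day (SE 0.36, 95% interval -0.09 to 1.45, edgeR adjusted p 0.423). At 3 days it was 0.34 (SE 0.36, interval -0.42 to 1.10, edgeR adjusted p 0.741). Meg3, a long non-coding RNA of an imprinted cluster, stood at 14.96 and 3.81 CPM in the uninjured libraries, 4.52, 8.59 and 6.10 CPM at 1 day, and 5.88, 3.87 and 7.75 CPM at 3 days. Its exons share 1228 bases with Gm26906 on the opposite strand and 271 with other genes on the same strand.

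The highest Meg3 level was again that of uninjured replicate 1. With it the log2 fold change at 3 days against uninjured was -0.69 (SE 0.61, edgeR adjusted p 0.676), and without it 0.60. Rbfox3, which encodes the nuclear antigen NeuN, stayed at or below 1.42 CPM. Thy1, a surface protein of projection neurons, had 28 counts at 1 day, 24 of them in replicate 2, and none at 3 days or in uninjured mice. Against a floor of 3 counts over a group, it was at least 8.57-fold higher at 1 day than in uninjured mice, and at least 9.24-fold lower at 3 days than at 1 day, in counts that 1 library dominates.

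**Figure D3:**
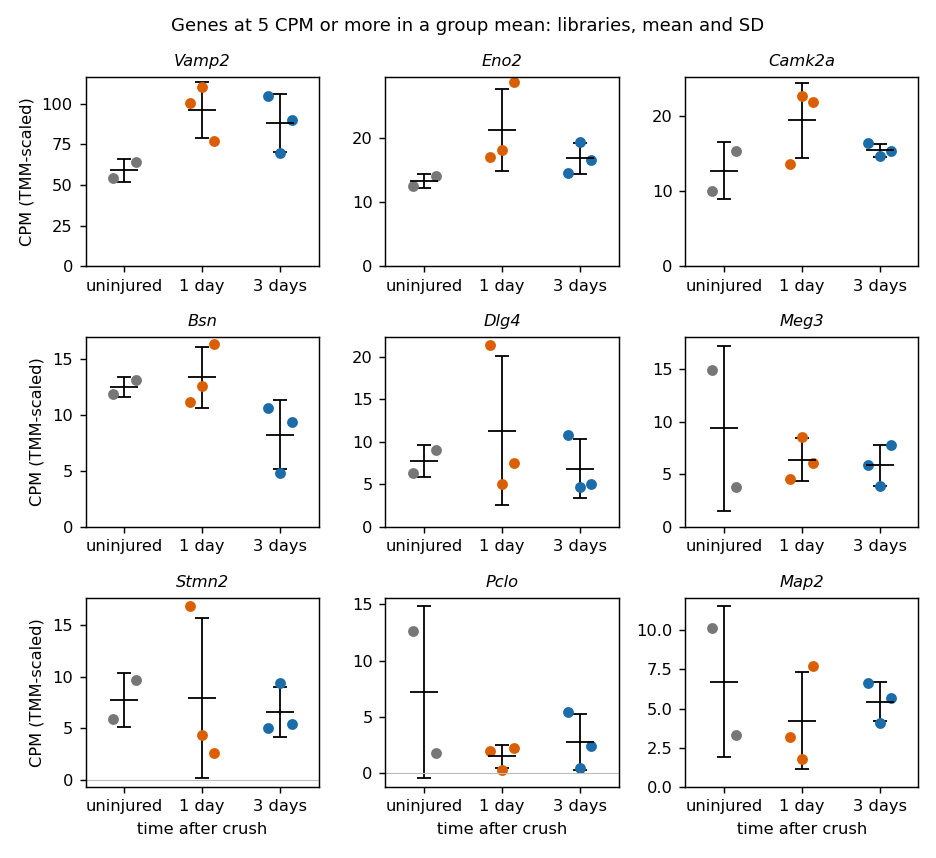
CPM (y axis, each panel from 0 or just below) of the 9 genes that reached 5 CPM in a group mean, in uninjured mice (grey, n = 2) and 1 day (orange, n = 3) and 3 days (blue, n = 3) after crush. Points are libraries, bars the mean and SD. Every library after crush lies above the uninjured ones for Vamp2 and Eno2, and those of 3 days lie below them for Bsn. Pclo, Meg3, Dlg4 and Stmn2 each have 1 library far above the others.

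The library with the highest level was noted for each gene, whether its counts were many or few. Uninjured replicate 1 was the highest library for 6 of the 27 genes (Syn1, Pclo, Nrgn, Tubb3, Map2 and Meg3) and replicate 3 of 3 days for 7. The libraries of 1 day were the highest for 13 between them. Uninjured replicate 2 and replicate 1 of 3 days were the highest for none. Among the 20 tested genes, uninjured replicate 1 was the highest for 5 and replicate 3 of 3 days for 4. Such shares over all genes of the table were not counted. The number of the 27 genes with a count was 24 and 23 in the uninjured libraries, 15, 21 and 22 in those of 1 day, and 22, 22 and 24 in those of 3 days. Replicate 1 of 1 day, with 15, was also the library with the fewest counts and the fewest genes of any kind detected, 69.2% of the table against 71.6% to 85.9% in the others.

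The wider neuronal repertoire was read from 5 lists of 103 other genes, of which 94 had a row and 69 were tested. At 1 day against uninjured 0 were called higher and 1 lower (Shank2), where 0.610% and 1.16% of all genes were. For 3 days against uninjured 1 was called higher (Syngr1) and 1 lower (Ank2), beside 2.49% and 0.983% of all genes. Between the times 4 were called higher at 3 days (Syngr1, Shank2, Cntn1 and Nova2) and 1 lower (Ank2), beside 5.24% and 5.75%.

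The calls came from 4 of the 5 lists, and the list of excitability and ion transport genes, with 14 tested, held none. Median log2 fold changes of the lists at 3 days against 1 day were 0.44 for presynaptic release (16 tested), 0.61 for postsynaptic genes (15), 0.01 for cytoskeleton and axon (17), -0.08 for RNA regulators (7) and 0.54 for excitability. At 1 day against uninjured they were -0.40, -0.32, -0.17, 0.02 and -0.24 in the same order. For 3 days against uninjured they were 0.26, -0.02, -0.13, 0.19 and 0.14.

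Syngr1, synaptogyrin 1, a vesicle membrane protein, stood at 14.2 and 21.7 CPM in the uninjured libraries, 18.1, 24.7 and 22.4 CPM at 1 day, and 48.9, 40.7 and 52.4 CPM at 3 days. The 3 libraries of 3 days lay above all others. It rose at 3 days by 1.40 on the log2 scale against uninjured (SE 0.30, edgeR adjusted p 0.0202) and by 1.12 against 1 day (SE 0.26, edgeR adjusted p 0.0139). The first call was lost without either uninjured library or replicate 1 or 3 of 3 days (adjusted p 0.333, 0.0555, 0.0772 and 0.13). The second was lost without replicate 1 or 3 of 3 days (0.0548 and 0.0752).

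Ank2, the membrane adaptor ankyrin B, averaged 77.2 ± 15.7 CPM at 3 days (SD, n = 3), against 136.6 ± 32.9 CPM in uninjured mice (SD, n = 2). It fell at 3 days by 0.82 on the log2 scale against uninjured (SE 0.21, edgeR adjusted p 0.0465), a call lost in 5 of the 8 fits that left out 1 library, with adjusted p of 0.0607 to 0.457 (either uninjured library, replicate 3 of 1 day, or replicate 1 or 3 of 3 days). Against 1 day it fell by 0.77 (edgeR adjusted p 0.0204), a call lost without replicate 1 of 1 day or replicate 1 or 3 of 3 days (0.0585, 0.0965 and 0.073). Nova2, a neuronal splicing factor, averaged 10.6 ± 3.23 CPM at 3 days and 3.35 ± 1.07 CPM at 1 day (SD, n = 3 each). Its log2 fold change was 1.66 (edgeR adjusted p 0.037). That call was lost in 7 of 8 fits that left out 1 library, at 0.0517 to 0.162. Only the fit without replicate 2 of 1 day kept it.

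Shank2 and Cntn1 were nearly missing at 1 day. Shank2, a scaffold of excitatory synapses, stood at 15.2 and 1.49 CPM in the uninjured libraries, 0, 0.321 and 0 CPM at 1 day, and 10.7, 0.745 and 14.9 CPM at 3 days. Cntn1, the adhesion protein contactin 1, stood at 41.8 and 2.27 CPM in the uninjured libraries, 0, 0 and 0.616 CPM at 1 day, and 37.8, 6.33 and 29.8 CPM at 3 days. The libraries with high levels of both were uninjured replicate 1 and replicates 1 and 3 of 3 days, which also had the 3 highest sums of choroid plexus markers. The part of choroid plexus cells in these levels was not tested.

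The edgeR adjusted p of Shank2 was 0.0359 at 1 day against uninjured and 0.00878 at 3 days against 1 day. The first call was lost in 6 of 8 fits that left out 1 library (0.0686 to 0.599, all but those without uninjured replicate 2 or replicate 2 of 3 days), and the second without replicate 1 of 1 day (0.072). Cntn1 was called at 3 days against 1 day with an edgeR adjusted p of 0.0259. That call was lost without any single library of 1 day or replicate 3 of 3 days (0.0539 to 0.123). limma-voom called neither gene (adjusted p 0.142 to 0.287).

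Markers of neuron types of the LGN, of nearby regions and of the retina were in large part not measured or not tested. Of thalamic relay markers 10 of 13 had a row and 7 were tested, of inhibitory neuron markers 9 of 13 and 4, of hippocampal and cortical markers 6 of 12 and 3, and of retinal ganglion cell markers 3 of 8 and 2. Of these 16 tested markers, 1 was called at 1 day against uninjured (Zfhx3, higher), beside 1.77% of all genes. For 3 days against uninjured 1 was called (Prox1, lower), beside 3.47%, and for 3 days against 1 day 4 (Otx2 higher, and Zfhx3, Prkcd and Prox1 lower), beside 11.0%. These counts are too small to set the markers apart from other genes. No retinal ganglion cell marker was called. Rbpms, an RNA-binding protein listed as a marker of these cells, stood at 77.9 to 105.4 CPM in all libraries, and Sncg at 0.0802 to 2.83 CPM.

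Zfhx3, a transcription factor of many cell types, averaged 647.1 ± 66.0 CPM at 3 days and 1464 ± 178.8 CPM at 1 day (SD, n = 3 each), against 907.1 ± 120.4 CPM in uninjured mice (SD, n = 2). It fell at 3 days against 1 day by 1.18 on the log2 scale (edgeR adjusted p 0.000162). Its call at 1 day against uninjured (0.69, adjusted p 0.0402) was lost in 7 of the 8 fits that left out 1 library, at 0.0541 to 0.523 (all but the fit without replicate 2 of 1 day), and with RLE, upper quartile or library size scaling (0.0528, 0.0734 and 0.182). Prox1, a transcription factor listed here as a hippocampal and cortical marker, averaged 37.3 ± 3.39 CPM at 3 days and 86.7 ± 6.25 CPM at 1 day (SD, n = 3 each). In uninjured mice it averaged 80.6 ± 10.1 CPM (SD, n = 2).

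Prox1 fell at 3 days by 1.11 on the log2 scale against uninjured (edgeR adjusted p 0.00677) and by 1.22 against 1 day (0.000898). The first call was lost without uninjured replicate 1 (adjusted p 0.135). Prkcd, a kinase listed here as a thalamic relay marker, fell at 3 days against 1 day by 0.87 (edgeR adjusted p 0.0178). That call was lost without replicate 1 or 3 of 1 day or replicate 2 or 3 of 3 days (0.0532 to 0.106). Which cells gave the levels of Zfhx3, Prox1, Prkcd and Rbpms was not tested. Otx2, which also stands in the choroid plexus list, had no count at 1 day. It stood at 38.3 and 3.66 CPM in the uninjured libraries, and 22.6, 1.12 and 23.6 CPM at 3 days. Against 3 counts over the group of 1 day, the pooled level of 3 days was at least 219.9-fold higher. Replicates 1 and 3 gave most of that level. The edgeR adjusted p of Otx2 was 0.038, lost without any library of 1 day or replicate 3 of 3 days (0.0623 to 0.143). It was also lost with limma-voom (0.154), and in edgeR with no filter on low counts (0.213) or a stricter one (0.0511).

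The summed level of the 27 genes was set beside that of the other cell types in each library. Astrocyte markers, 12 of 12 measured, summed to 284.7 to 395.2 CPM in the uninjured libraries, 167.1 to 239.8 CPM at 1 day and 217.9 to 252.3 CPM at 3 days. Oligodendrocyte markers, 12 of 12 measured, summed to 118.7 to 139.2 CPM in uninjured mice, 91.5 to 135.3 CPM at 1 day and 115.9 to 161 CPM at 3 days. Mural markers, 10 of 10 measured, summed to 1438 to 1647 CPM in uninjured mice, 789.5 to 971.2 CPM at 1 day and 1110 to 1270 CPM at 3 days. The sum of the 27 genes was highest on average at 1 day. There the sums of endothelial, mural and choroid plexus markers were lowest, and those of microglial markers highest, at 12450 to 15450 CPM. Without Vamp2 the mean of the 27-gene sum was again highest at 1 day, but the libraries of 1 day and of uninjured mice overlapped. Of the 12 microglial markers, 1 was called higher at 1 day against uninjured (Itgam, which encodes CD11b) and 0 lower. Of all genes 0.610% and 1.16% were. At 3 days 0 were called higher and 3 lower against uninjured, beside 2.49% and 0.983% of all genes. Against 1 day 0 were called higher and 5 lower, Itgam among them, beside 5.24% and 5.75%. The part of the listed cell types in the levels of the 27 genes was not tested.

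**Figure D4:**
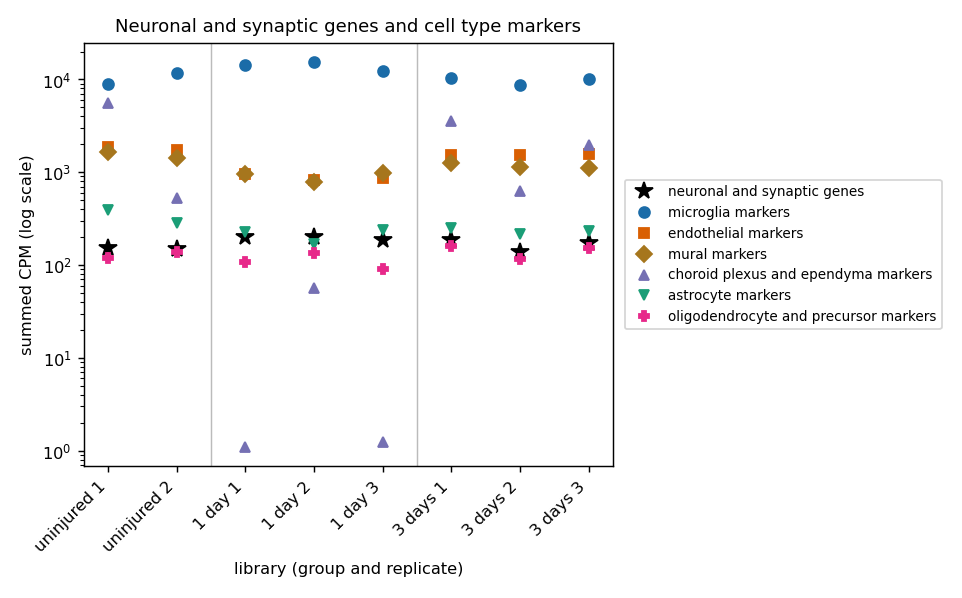
Summed CPM (y axis, log scale) of the 27 neuronal and synaptic genes (stars) and of 6 lists of cell type markers in each library (x axis; grey lines separate uninjured, 1 day and 3 days). The sum of the 27 genes stays between 137.4 and 200.3 CPM, while the choroid plexus sum runs from 1.09 to 5545 CPM. Vamp2 alone gave 35.9% to 56.1% of the sum of the 27 genes.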

How the data were processed

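RNA sequencing counts of 8 libraries were used. The authors deposited unnormalized read counts by Ensembl identifier, and the submitters' processing notes name FastQC, STAR, HTSeq and the build mm9. No version, annotation or strand setting was given in the sources used here. Symbols, exon lengths and overlaps came from GENCODE M21, a later build. It matched 25925 of 26062 identifiers, and the others held 0.127% of the counts. Libraries of a group differed beyond sampling noise (chi-square per degree of freedom 31.4 to 64.8).

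The test was the quasi-likelihood F-test of edgeR 4.0.16 (R 4.3.3), with default filterByExpr (17390 genes kept), TMM factors, robust dispersions and all 8 libraries in 1 fit by group. Adjustment was by Benjamini-Hochberg over all tested genes, and the threshold was 0.05. The biological coefficient of variation was 51.1%. Alternatives were DESeq2 1.42.0, limma-voom (limma 3.58.1), other scaling and filters, 2-group fits, a replicate block, and each library left out.

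The genes and lists were chosen with earlier results of these data known, so they are not independent evidence. All 29 genes are accounted for, with every library shown from a group mean of 5 CPM upward. Of each other list, up to 3 genes with the smallest p per comparison could be named. No list was tested as a set.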

Additional observations from a re-analysis of the deposited data

How the results depend on the processing

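Of the 20 tested genes none was called at 1 or 3 days against uninjured under any alternative that tested it. Not every alternative tested all 20. The stricter filter kept 9 of the genes, and each 2-group fit with uninjured kept 16. Gria1 at 3 days against uninjured was not tested in either, and DESeq2 gave it no adjusted p there. At 3 days against 1 day, 1 gene was called lower with DESeq2 and 1 with no filter on low counts (Gria1 in both). In fits that left out 1 library, 0 to 1 were called lower there (Gria1 without replicate 2 of 1 day) and 0 to 1 higher (Nefh without replicate 3 of 1 day). The cause was not tested.

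Numbers of all genes called moved more. DESeq2 called 824 at 1 day and 1295 at 3 days against uninjured, and 2872 at 3 days against 1 day, where edgeR called 308, 604 and 1912. Fits of 2 groups alone called 110 and 1345 at 1 and 3 days against uninjured. Leaving out 1 library gave 39 to 368, 108 to 982 and 747 to 2362 calls, the lowest without uninjured replicate 1 for both comparisons with uninjured and without replicate 3 of 3 days between the times. Of the calls, 34.4% were higher at 1 day with TMM scaling, 24.6% with upper quartile scaling, 16.5% with library size alone and 53.3% with limma-voom. At 3 days against uninjured 71.7% were higher with TMM, 56.1% with upper quartile scaling and 56.5% with library size alone, where the median of all genes moved to -0.11 and -0.15.

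The summed level of the 27 genes in uninjured mice, 149 CPM, was 151.8 with RLE, 156.3 with upper quartile scaling and 160.1 with library size alone. It was 146.3 to 155.1 in fits that left out 1 library. Under the same 3 scalings the 166.1 CPM of 3 days became 164.8, 161.8 and 160.7 CPM. The 195 CPM of 1 day became 194.2, 193.8 and 192.6 CPM. With library size alone the means of 3 days and of uninjured mice were thus nearly equal. Pclo at 1 day ran from -3.06 to -0.27 in fits that left out 1 library. Log2 fold changes at 3 days against uninjured ran from -1.36 to 0.60 for Meg3 and from -2.33 to 0.61 for Pclo in such fits, and from -1.22 to 0.12 for Dlg4 at 3 days against 1 day.

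With the replicate block 0 of 20 genes were called in each comparison, and 301, 424 and 1700 of all genes. Deviations of same-numbered libraries correlated at -0.068 to 0.091, so the numbers were not taken as pairs. The block ended the calls of Shank2 (adjusted p 0.0573) and Zfhx3 (0.0828) at 1 day and Ank2 (0.0756) at 3 days against uninjured, and of Nova2 (0.0591) at 3 days against 1 day. The low-count filter left out 7 of the 27 genes, so those have values and no test.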
